A study of Homo sapiens with 6 samples.

Results

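Expression of 39 lysosomal genes was compared in DLD1, a long-established line of human colorectal carcinoma cells grown in RPMI1640 with fetal bovine serum. The cells had been infected with lentivirus carrying a short hairpin RNA (shRNA) against CDKL1, a serine/threonine kinase related to the cyclin-dependent kinases, or with lentivirus carrying a control shRNA. Both groups therefore carried a lentivirus and an expressed shRNA, and the labels do not name the hairpin sequence, the promoter that drives it or the time after infection. Each group held 3 samples with 1 Affymetrix array each, and the labels do not state that cultures or infections were separate. The p-values therefore reflect only how these samples vary, which may be technical. The 39 genes described here encode lysosomal hydrolases, lysosomal membrane proteins and subunits of the vacuolar proton pump, with TFEB and TFE3, and were chosen by name. All 39 were found among the 18132 genes on the array, each read from its brightest probe set annotated to that gene alone. As the RNA is from bulk cells, fewer cells of a kind and less RNA per cell cannot be told apart.

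The lysosome is the acidic compartment in which proteins, glycans and lipids delivered by endocytosis and autophagy are broken down. Its lumen is acidified by the V-ATPase, a rotary proton pump whose cytosolic V1 sector hydrolyses ATP and whose membrane V0 sector carries protons. Most lysosomal hydrolases act only at low pH, and TFEB and TFE3, basic helix-loop-helix factors of the MiT/TFE family, can raise transcription of many lysosomal genes together when they enter the nucleus. Their activity is set largely by where the protein is in the cell, which an expression array does not measure.

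Levels are on the log2 scale, after the RMA normalisation of the authors, and a change is the mean of the CDKL1 shRNA arrays minus the mean of the control arrays. The 6 array medians ranged from 6.64 to 6.70. CDKL1 itself read 4.51, 4.42 and 4.17 in the control arrays and 4.25, 4.20 and 4.08 in the CDKL1 shRNA arrays. These values lay within the range of 2.97 to 4.92 of background control probe sets and the groups overlapped, so this probe set did not check the knockdown (change -0.19, limma adjusted p = 0.219). The epithelial marker EPCAM had a mean level of 13.53, whereas the villus marker VIL1 (5.57) and the intestinal lectin LGALS4 (5.37) were the dimmest of 12 epithelial markers, none of which lay within the background range. Of the 12, VIL1 alone was called, with a fall of 0.57 (adjusted p = 0.019, limma). The summed linear level of the 12 was lower with CDKL1 shRNA without overlap, at 70536.4 to 71035.8 in control arrays and 66520.6 to 67945.9 in CDKL1 shRNA arrays. KRT8 (-0.15, adjusted p = 0.0502), KRT18 (-0.13, adjusted p = 0.0651) and CDH1 (-0.12, adjusted p = 0.116, limma) also lay below control in all arrays. As a sign of RNA quality, ACTB signal at the 3' end exceeded that at the 5' end by 1.40 ± 0.0133 with control shRNA and by 1.60 ± 0.115 with CDKL1 shRNA (log2, SD, n = 3), and CDKL1 shRNA replicate 2 was highest at 1.73. The same difference for GAPDH was 0.203 ± 0.018 and 0.275 ± 0.0262, and for both genes all CDKL1 shRNA arrays lay above all control arrays.

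The lysosomal genes did not move as 1 block. The V-ATPase genes were shifted upwards, with ATP6V1D 1.40-fold higher, while the hydrolases and membrane proteins moved in both directions, from a 1.35-fold rise of the sialidase gene NEU1 to a 1.78-fold fall of the lysosomal receptor gene SCARB2. Of the 39 genes, 13 rose and 5 fell at an adjusted p of 0.05 (limma, Benjamini-Hochberg over all genes), and 21 did not pass. The share that rose was 33.3%, against 8.97% of all genes tested, and the share that fell was 12.8%, against 7.79%. Brighter genes passed more often in these arrays: among genes at or above the median level 15.5% rose and 12.3% fell, and of the 35 lysosomal genes in that range 31.4% rose and 14.3% fell. The share of falls was thus close to that of genes of like brightness. The median change over the 39 genes was 0.10, against -0.01 over all genes. Without the 10 V-ATPase genes it was -0.01. Of the 29 genes then left, 7 rose (24.1%, against 8.97% of all genes) and 5 fell (17.2%, against 7.79%). At or above the median level 20% of 25 rose and 20% fell, against 15.5% and 12.3% of all genes in that range.

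**Figure D1:**
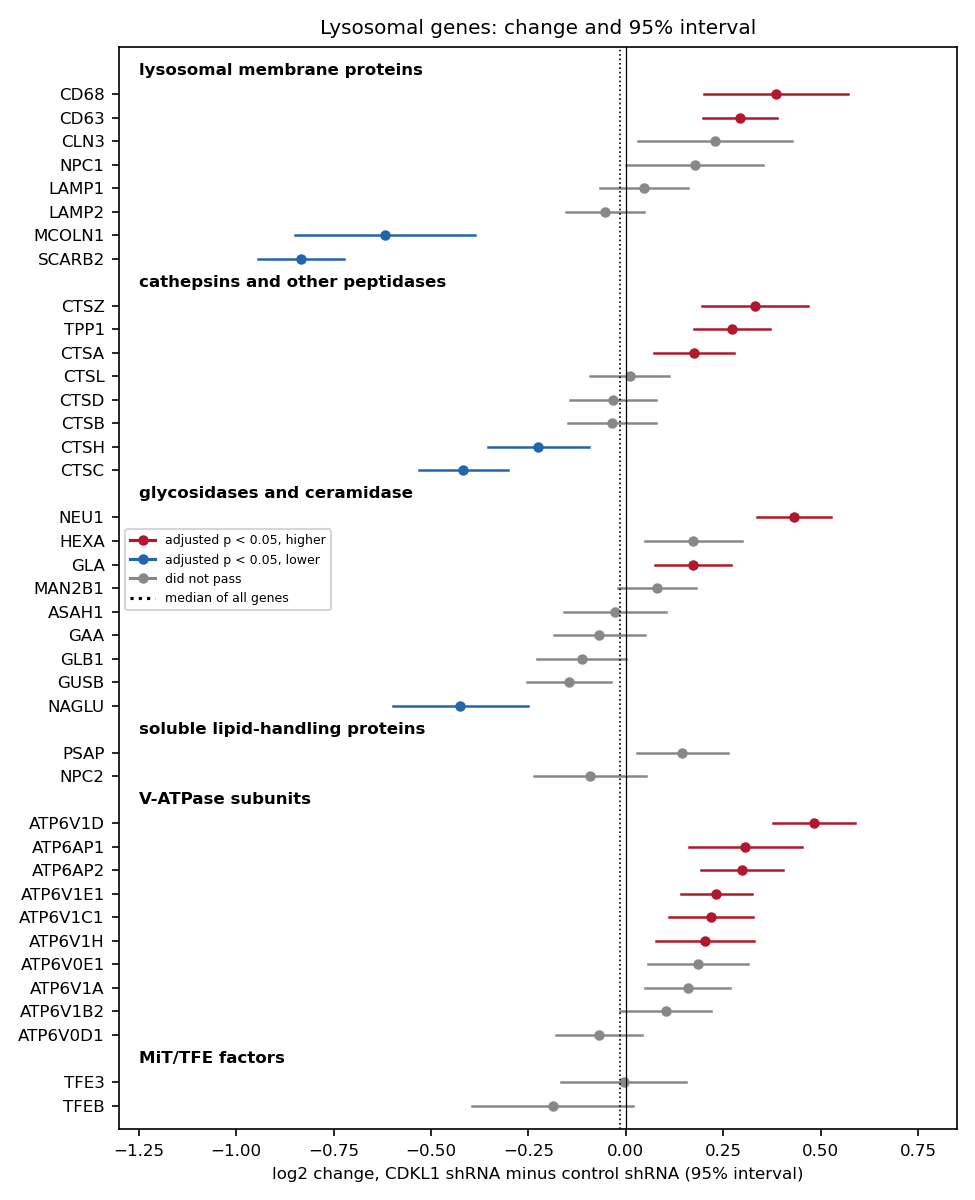
Log2 change of each of the 39 lysosomal genes (points) with its 95% interval from limma (lines), grouped by role. Red marks genes that rose and blue genes that fell at an adjusted p of 0.05, grey marks genes that did not pass, and the dotted line is the median of all genes. Of the 10 V-ATPase subunits, 9 lie right of 0. Both MiT/TFE factors lie left of 0, and each of the 4 remaining groups has genes on both sides.

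The groups did not overlap for 19 of the 39 genes with CDKL1 shRNA higher (48.7%, against 18.1% of all genes) and for 7 with CDKL1 shRNA lower (17.9%, against 17.6%). Fewer genes rose with some single arrays left out, both of the 39 and of all genes. Without CDKL1 shRNA replicate 3, 7 of the 39 rose, where 4.94% of all genes did. Without control replicate 3, 8 of the 39 rose, where 5.56% of all genes did. When the ACTB end difference entered the model beside the group, 1 of the 18 called genes, SCARB2, was still called, where 0.601% of all genes rose and 0.607% fell. In that fit 0 of the 18 changes turned sign, their median size went from 0.303 to 0.278 and their median SE from 0.0463 to 0.0879. Since the ACTB end difference does not overlap between the groups, this fit can hardly separate it from the group, and the part of RNA quality in these changes was not tested.

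V-ATPase genes gave the most uniform pattern. Of the 10 subunits and accessory proteins, 6 rose (60%, against 8.97% of all genes), 0 fell (against 7.79%) and 4 did not pass. All 10 lay at or above the median level, where 15.5% of all genes rose and 12.3% fell. The median change of the 10 was 0.21, with 9 of 10 changes above 0 (45.8% of all genes had a change above 0). ATP6V1D, a subunit of the central rotor stalk of V1, read 10.68, 10.78 and 10.74 in the control arrays and 11.23, 11.20 and 11.23 in the CDKL1 shRNA arrays. The groups were far apart relative to their spread, and the rise was 0.48 (SE 0.04, adjusted p = 0.000853, limma). ATP6V1E1, part of the peripheral stalk that holds the catalytic head still, had some of the tightest replicates, at 11.04, 11.03 and 11.02 against 11.25, 11.27 and 11.27. Its change was small, 0.23, yet exceeded the spread within either group (adjusted p = 0.00781, limma). ATP6V1C1, which joins the peripheral stalks to the membrane sector, went from 9.98, 10.04 and 10.01 to 10.21, 10.19 and 10.28 (change 0.22, adjusted p = 0.0184, limma). ATP6V1H, a regulatory subunit of V1, went from 9.24, 9.21 and 9.31 to 9.40, 9.53 and 9.43, again without overlap (change 0.20, adjusted p = 0.0412, limma).

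The accessory proteins rose as well. ATP6AP2, also known as the prorenin receptor and needed for assembly of the pump, read 11.51, 11.55 and 11.60 in control arrays and 11.83, 11.84 and 11.88 in CDKL1 shRNA arrays (change 0.30, SE 0.05, adjusted p = 0.00547, limma). ATP6AP1, its partner in V0 assembly, read 9.32, 9.29 and 9.20 against 9.47, 9.62 and 9.64 (change 0.31, SE 0.06, adjusted p = 0.0165, limma). All CDKL1 shRNA arrays lay above all control arrays for both genes. The catalytic head subunit genes ATP6V1A (0.16, adjusted p = 0.0577, limma) and ATP6V1B2 (0.10, adjusted p = 0.226) did not pass, and neither did the V0 genes ATP6V0E1 (0.19, adjusted p = 0.0589) and ATP6V0D1 (-0.07, adjusted p = 0.382). Of the 6 V-ATPase calls, 3 were left without CDKL1 shRNA replicate 3 and 3 in the fit that left out control replicate 3. ATP6V1H lost its call without any 1 of the arrays (adjusted p = 0.0591 to 0.127, limma). ATP6AP1 and ATP6V1C1 lost theirs without control replicate 3 (adjusted p = 0.0575 and 0.0615) or CDKL1 shRNA replicate 3 (adjusted p = 0.0642 and 0.0712), and ATP6AP1 also without CDKL1 shRNA replicate 2 (adjusted p = 0.0541).

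Further probe sets of these genes, which read the same RNA and are not independent samples, were compared next. The 6 V1 genes had 19 probe sets and all 19 had a positive change. With p adjusted over all 44988 probe sets annotated to 1 gene, 15 of the 19 passed, where 7.43% of all such probe sets rose. All 3 probe sets of ATP6V1D rose, by 0.48 to 0.60. For ATP6V1C1 5 of 5 rose, by 0.22 to 0.59, so the brightest one gave the smallest value. The dimmest of these 5 lay within the background range in all arrays, with means of 3.72 (control) and 3.99 (CDKL1 shRNA). Its change of 0.27 therefore does not check the rise of ATP6V1C1, although it is counted in the 19 and the 15. ATP6V1A, which had missed the threshold through its brightest probe set, rose in the 4 others of its 5 probe sets, and its changes ran from 0.16 to 0.43. All 3 probe sets of ATP6V1B2 had a positive change, at 0.10 to 0.25, and 1 passed. ATP6V1B2 was called higher when its probe sets were averaged and when the _s and _x kinds were left out. For ATP6V0E1 3 of 4 passed, all 4 lying at 0.19 to 0.25, and for ATP6AP2 5 of 5 passed, at 0.26 to 0.40. The second probe set of ATP6AP1 did not pass (0.17, adjusted p = 0.155 over all probe sets, limma), and without the _s and _x kinds ATP6AP1 gave 0.17 in place of 0.31 and lost its call (adjusted p = 0.145). ATP6V0D1, the V0 subunit that couples the rotor to the proton-carrying ring, stood apart: none of its 7 probe sets passed, and 6 of 7 had a negative change.

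**Figure D2:**
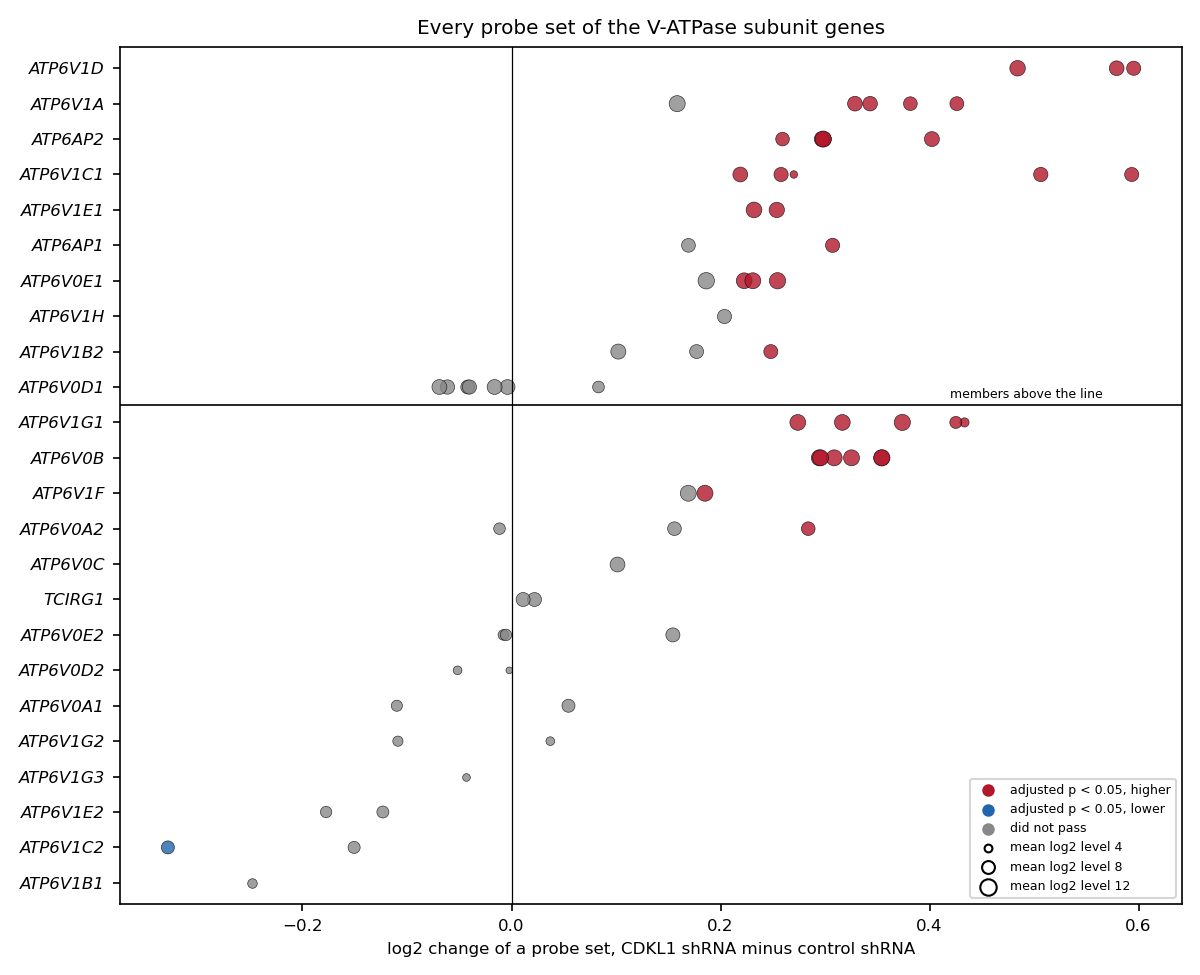
Log2 change of every probe set of 24 V-ATPase subunit genes, with dot area increasing with the mean log2 level. Above the line are the 10 genes of the main set, of which ATP6V0D1 alone has probe sets left of 0. Below it are 14 further subunit genes, among which all probe sets of ATP6V1G1 and ATP6V0B rose and those of ATP6V1C2, ATP6V1E2 and ATP6V1B1 lie left of 0.

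The remaining V-ATPase genes were taken from a second list of 15, of which 14 were measured. In it 4 rose (28.6%, against 8.97% of all genes) and 1 fell (7.14%, against 7.79%). Its median change was 0.03, with 8 of 14 changes above 0. Of its 9 genes at or above the median level 44.4% rose and 11.1% fell, against 15.5% and 12.3% of all genes in that range. The median change of these 9 was 0.15. ATP6V0B, a proton-carrying ring subunit, rose by 0.35 (SE 0.05, adjusted p = 0.00457, limma) and ATP6V1G1, of the peripheral stalk, by 0.37 (SE 0.06, adjusted p = 0.00702). ATP6V0A2 (0.28) and ATP6V1F (0.19), named after their values were seen, also rose. The gene that fell was ATP6V1C2, an isoform of the ATP6V1C1 subunit with narrow tissue distribution (-0.33, SE 0.06, adjusted p = 0.00908, limma). Averaging the probe sets of ATP6V1C2 left it short of the threshold (-0.24, adjusted p = 0.0512, limma). Over both lists 10 of 24 subunit genes rose (41.7%, against 8.97% of all genes) and 1 fell (4.17%, against 7.79%).

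Membrane proteins of the lysosome included the genes with the greatest falls. SCARB2 encodes LIMP-2, the receptor that carries beta-glucocerebrosidase to the lysosome. It read 11.91, 11.93 and 11.85 in control arrays and 11.02, 11.11 and 11.07 in CDKL1 shRNA arrays. The gap between the groups was many times the spread within them, a fall of 0.83 on the log2 scale (SE 0.05, 95% interval -0.94 to -0.72, adjusted p = 0.000157, limma). All 4 probe sets of SCARB2 were lower and 3 of them passed, with changes of -0.83 to -0.19. MCOLN1, the calcium-releasing cation channel of the lysosome (mucolipin-1), read 9.26, 9.08 and 8.89 in control arrays and 8.53, 8.50 and 8.35 in CDKL1 shRNA arrays. Its control arrays varied more than those of any other gene of the 39 but did not overlap with the CDKL1 shRNA arrays (change -0.62, SE 0.10, adjusted p = 0.00649, limma). Both probe sets of MCOLN1 fell, the second by 0.30.

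CD63 and CD68 were the membrane proteins that rose. CD63, a tetraspanin of late endosomes, lysosomes and exosomes, went from 12.66, 12.69 and 12.69 to 12.94, 12.99 and 12.99 (change 0.29, SE 0.04, adjusted p = 0.00382, limma), and both of its probe sets rose. CD68, a heavily glycosylated lysosomal membrane protein that is abundant in macrophages, went from 6.97, 7.00 and 7.19 to 7.33, 7.46 and 7.54 (change 0.39, SE 0.08, adjusted p = 0.0171, limma). Its second probe set rose by 0.70. Both probe sets of CD68 are of the _x kind, so the fit without _s and _x kinds holds no value for it. The call of CD68 was lost when control replicate 1 or 2 was left out (limma adjusted p = 0.0544 and 0.0607), and also when CDKL1 shRNA replicate 2 or 3 was (adjusted p = 0.0512 and 0.0627). Of 14 other macrophage and leukocyte markers 1 rose (7.14%, against 8.97% of all genes) and 0 fell (against 7.79%). The one that rose, the scavenger receptor gene CD163, read 4.61, 4.62 and 4.46 in control arrays, within the background range, and 5.17, 5.24 and 5.23 in CDKL1 shRNA arrays, above its top of 4.92 (change 0.65, adjusted p = 0.000772, limma). PTPRC, MRC1, FCGR3A and LYZ had means within the background range. The summed linear level of the 14 markers was 644.5 to 682 in control arrays and 647.3 to 689.5 in CDKL1 shRNA arrays, so it overlapped between the groups. The part of such cells in the rise of CD68 was not tested.

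LAMP1 and LAMP2, the heavily glycosylated proteins that line the lysosomal membrane, gave no call in either direction. LAMP1 read 11.97, 11.96 and 12.03 in control arrays and 11.97, 12.07 and 12.06 in CDKL1 shRNA arrays, a change of 0.05 with a 95% interval from -0.07 to 0.16 (adjusted p = 0.587, limma). LAMP2 read 10.61, 10.57 and 10.56 against 10.50, 10.57 and 10.51, a change of -0.05 with an interval from -0.15 to 0.05 (adjusted p = 0.456, limma). The groups overlapped for both genes. Of the 9 probe sets of LAMP2, 1 passed, with a rise of 0.33, and 5 had the sign opposite to the brightest one. NPC1, the membrane cholesterol exporter (0.18, adjusted p = 0.165, limma), and CLN3, a membrane protein mutated in juvenile neuronal ceroid lipofuscinosis (0.23, adjusted p = 0.114), did not pass, although all 8 probe sets of CLN3 were positive.

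**Figure D3:**
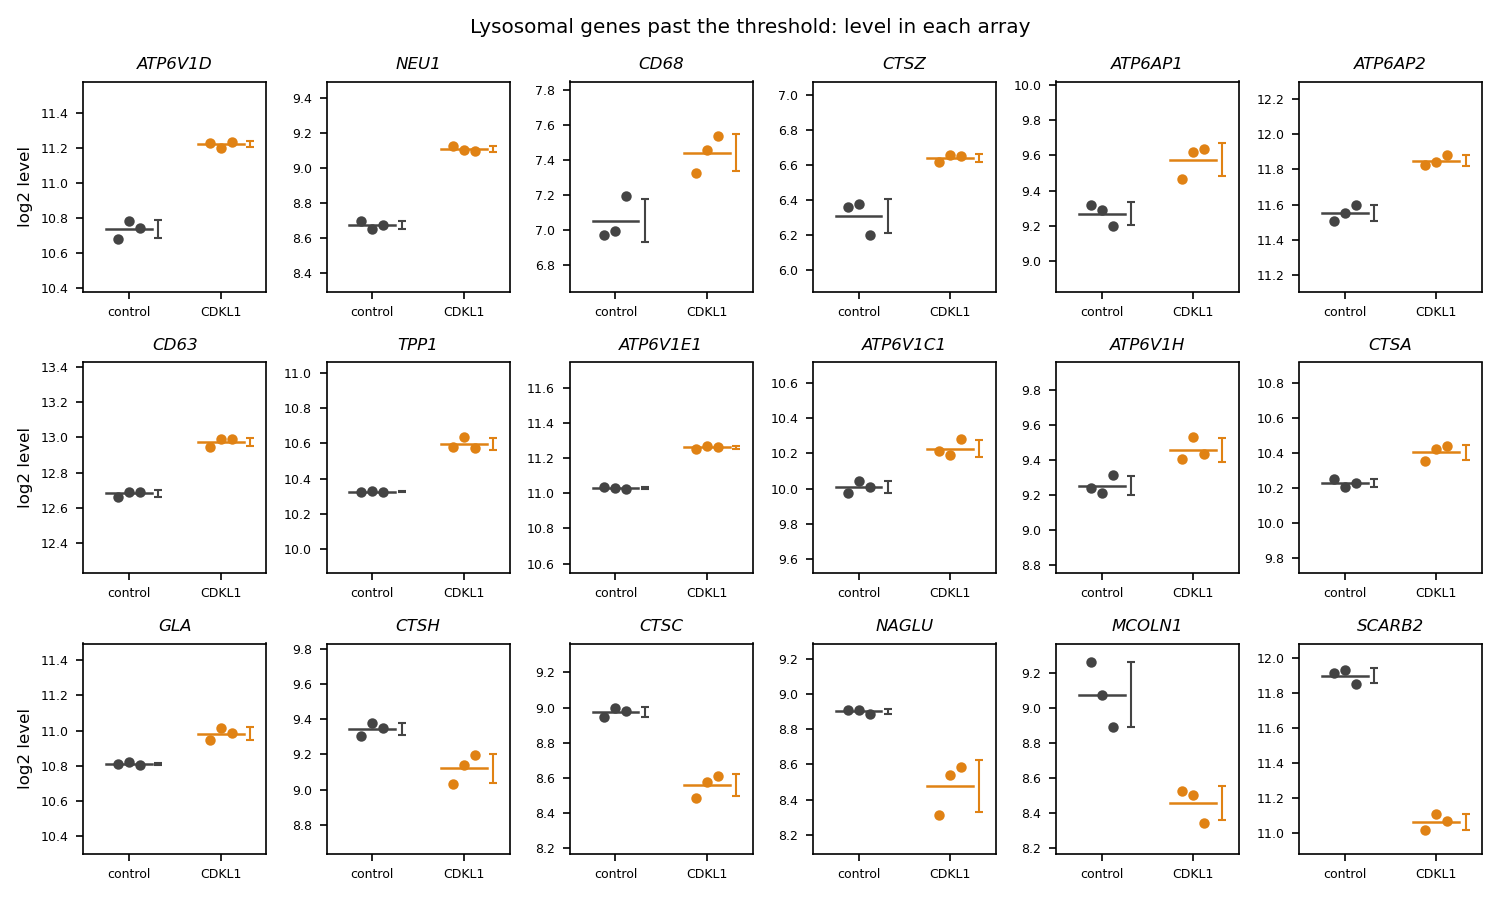
Log2 level in each array of the 18 lysosomal genes past the threshold, with horizontal bars at group means and error bars of 1 SD (n = 3 arrays per group), ordered from the greatest rise to the greatest fall. Each panel spans the same log2 range around its own mean, and in every panel the 3 CDKL1 shRNA arrays lie apart from the 3 control arrays.

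Peptidase genes were divided. Of 8, 3 rose (37.5%, against 8.97% of all genes), 2 fell (25%, against 7.79%) and 3 did not pass. The median change of the 8 was -0.01. CTSZ (cathepsin Z, a carboxypeptidase) read 6.36, 6.38 and 6.20 in control arrays and 6.62, 6.66 and 6.65 in CDKL1 shRNA arrays, the highest relative rise of the peptidases (change 0.33, SE 0.06, adjusted p = 0.00915, limma). TPP1, which removes tripeptides from the N terminus of proteins, went from 10.32, 10.33 and 10.32 to 10.58, 10.64 and 10.58 (change 0.27, SE 0.04, adjusted p = 0.00542, limma). Its groups were narrow and clearly separate, but 2 of its 9 probe sets passed and 2 others were negative, the lowest at -0.18. The average over all TPP1 probe sets missed the threshold (0.09, adjusted p = 0.189, limma), and the sign turned when probe sets of the _s and _x kinds, which can bind related transcripts, were left out (-0.18, adjusted p = 0.0755).

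CTSA, the carboxypeptidase that also protects NEU1 and beta-galactosidase in a complex, read 10.25, 10.21 and 10.23 against 10.35, 10.42 and 10.44 (change 0.18, SE 0.04, adjusted p = 0.0355, limma). This small rise kept its call only without CDKL1 shRNA replicate 1 among the fits with 1 array left out, and the 5 others gave adjusted p = 0.0566 to 0.121 (limma). Neither probe set of CTSA passed when p was adjusted over all probe sets (adjusted p = 0.0568 and 0.0649, limma). One is of the _x and the other of the _s kind, so the fit without these kinds holds no value for CTSA. CTSC, or dipeptidyl peptidase I, the activator of granule serine proteases, fell from 8.94, 9.00 and 8.98 to 8.49, 8.58 and 8.61 (change -0.42, SE 0.05, adjusted p = 0.00196, limma). Its 3 probe sets ranged from -0.42 to 0.09, and without those of suffix _s or _x it gave -0.21 (adjusted p = 0.0803). CTSH, an aminopeptidase, went from 9.31, 9.38 and 9.35 to 9.03, 9.14 and 9.19 (change -0.22, SE 0.05, adjusted p = 0.0325, limma). CTSH kept its call among the fits with 1 array left out only without CDKL1 shRNA replicate 3, and without each other array gave an adjusted p of 0.0528 to 0.103 (limma). The major endopeptidases CTSB (-0.03), CTSD (-0.03) and CTSL (0.01) did not pass, and the 95% intervals of their brightest probe sets all lay within -0.15 and 0.11. Of the 3 probe sets of CTSD, 2 had a positive change and none passed. The highest of them gave 0.11 with an interval from -0.06 to 0.27.

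Glycosidase genes and the ceramidase gene ASAH1 also went both ways, with a median change of -0.03. Among the 9, 2 rose (22.2%, against 8.97% of all genes) and 1 fell (11.1%, against 7.79%). NEU1, the sialidase that removes terminal sialic acid, read 8.70, 8.65 and 8.68 in control arrays and 9.13, 9.11 and 9.10 in CDKL1 shRNA arrays. The replicates were tight in both groups, and the rise was 0.43 (SE 0.04, 95% interval 0.34 to 0.53, adjusted p = 0.00088, limma). GLA, alpha-galactosidase A, rose by 0.17 from 10.81, 10.82 and 10.81 to 10.95, 11.02 and 10.98 (SE 0.04, adjusted p = 0.0303, limma). Its call was lost without any 1 of the arrays other than CDKL1 shRNA replicate 1 (adjusted p = 0.0599 to 0.096). None of the 3 probe sets of GLA passed when p was adjusted over all probe sets. Without the _s and _x kinds GLA gave 0.16 and lost its call (adjusted p = 0.112, limma). NAGLU, which removes N-acetylglucosamine from heparan sulfate, read 8.91, 8.91 and 8.89 in control arrays and 8.31, 8.54 and 8.58 in CDKL1 shRNA arrays. CDKL1 shRNA replicate 1 was the lowest, and all 3 lay below the controls (change -0.42, SE 0.07, adjusted p = 0.00911, limma).

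NEU1, CTSA and GLB1 encode the members of a lysosomal multienzyme complex. NEU1 and CTSA rose, whereas beta-galactosidase, GLB1, gave -0.11 with an interval from -0.23 to 0.0007 (adjusted p = 0.17, limma) and its 3 probe sets all lay between -0.13 and -0.10. HEXA, the alpha subunit of beta-hexosaminidase, gave 0.17 (adjusted p = 0.0681) and beta-glucuronidase, GUSB, -0.15 (adjusted p = 0.0757). Acid alpha-glucosidase GAA (-0.07), alpha-mannosidase MAN2B1 (0.08) and ASAH1 (-0.03) did not pass either. Neither soluble lipid-handling protein passed: the cholesterol-binding NPC2 gave -0.09 and prosaposin, PSAP, the precursor of the sphingolipid activators, gave 0.15 (adjusted p = 0.0939, limma), with its arrays not overlapping.

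TFEB and TFE3 showed no rise. TFEB read 7.00, 6.76 and 6.70 in control arrays and 6.71, 6.65 and 6.54 in CDKL1 shRNA arrays, a change of -0.19 with a 95% interval from -0.39 to 0.02 (adjusted p = 0.209, limma). Control replicate 1 was the highest, and the groups overlapped. TFE3 read 6.71, 6.83 and 6.79 against 6.87, 6.79 and 6.64, a change of -0.01 with an interval from -0.17 to 0.16 (adjusted p = 0.971, limma), and its sign turned under 5 of the alternatives.

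Because TFEB and TFE3 bind palindromes with the core CACGTG, the starts of the lysosomal genes were searched for these letters. The windows ran from 250 bases before to 50 bases after annotated starts in RefSeq (GRCh38.p14) and covered 28 of the 39 genes, 25 of them at the outermost annotated start. LAMP2, CTSB, HEXA, NAGLU, ASAH1, PSAP, ATP6V0E1, ATP6V1A, ATP6V1B2, ATP6V1C1 and ATP6V1H had none. Each motif is its own reverse complement, so 1 search covers both strands, and the longer one contains the shorter. The core CACGTG was found in 9 of the 28 genes, against 10.9% of the 14425 array genes with a window. TCACGTGA was found in 6 of 28, against 1.72%. Of the 6 genes with TCACGTGA, CTSA rose, MCOLN1 fell and ATP6V0D1, CLN3, GAA and LAMP1 did not pass. The stretches are shown because genes with the same letters differed in direction. Capitals mark TCACGTGA, each stretch is given 5′ to 3′ on the gene's strand, and GAA, LAMP1 and MCOLN1 hold it at 2 places. They lie at chr20:45891298-45891327 (CTSA, + strand), chr19:7522571-7522600 and chr19:7522598-7522627 (MCOLN1, + strand), chr16:67481199-67481228 (ATP6V0D1, - strand), chr16:28492058-28492087 (CLN3, - strand), chr17:80101493-80101522 and chr17:80101538-80101567 (GAA, + strand), and chr13:113297199-113297228 and chr13:113297226-113297255 (LAMP1, + strand).
CTSA: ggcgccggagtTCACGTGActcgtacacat
MCOLN1 first: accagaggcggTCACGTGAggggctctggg
MCOLN1 second: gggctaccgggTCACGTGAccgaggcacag
ATP6V0D1: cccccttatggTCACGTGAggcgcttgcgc
CLN3: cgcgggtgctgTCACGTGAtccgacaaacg
GAA first: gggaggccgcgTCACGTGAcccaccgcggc
GAA second: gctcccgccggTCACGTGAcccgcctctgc
LAMP1 first: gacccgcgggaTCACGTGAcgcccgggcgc
LAMP1 second: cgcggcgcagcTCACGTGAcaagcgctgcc

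The 250 bases before the start are given for the strongest called rises and falls with a window at the outermost annotated start of the gene, to set the genes that moved beside each other. They are the rises ATP6V1D (chr14:67359805-67360054, - strand) and NEU1 (chr6:31862822-31863071, -) and the falls MCOLN1 (chr19:7522374-7522623, +) and CTSC (chr11:88337737-88337986, -), each read 5′ to 3′ on the gene's strand with CACGTG in capitals. The letters CACGTG occur 2 times in MCOLN1, 1 time in NEU1 and 0 times in ATP6V1D and CTSC.
ATP6V1D: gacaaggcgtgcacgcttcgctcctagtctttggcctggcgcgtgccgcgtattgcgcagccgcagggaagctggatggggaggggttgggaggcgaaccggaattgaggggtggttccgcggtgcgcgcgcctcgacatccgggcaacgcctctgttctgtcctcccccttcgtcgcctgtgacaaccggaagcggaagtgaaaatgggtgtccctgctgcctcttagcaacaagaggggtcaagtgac
NEU1: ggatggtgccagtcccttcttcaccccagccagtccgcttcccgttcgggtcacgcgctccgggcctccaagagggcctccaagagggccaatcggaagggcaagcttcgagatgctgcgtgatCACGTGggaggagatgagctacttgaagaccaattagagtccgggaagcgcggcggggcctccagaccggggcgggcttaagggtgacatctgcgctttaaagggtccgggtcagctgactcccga
MCOLN1: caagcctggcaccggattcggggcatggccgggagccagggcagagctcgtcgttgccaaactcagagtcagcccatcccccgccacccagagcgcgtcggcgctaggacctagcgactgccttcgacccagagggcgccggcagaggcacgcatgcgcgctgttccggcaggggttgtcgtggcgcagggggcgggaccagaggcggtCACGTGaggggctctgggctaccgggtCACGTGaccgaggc
CTSC: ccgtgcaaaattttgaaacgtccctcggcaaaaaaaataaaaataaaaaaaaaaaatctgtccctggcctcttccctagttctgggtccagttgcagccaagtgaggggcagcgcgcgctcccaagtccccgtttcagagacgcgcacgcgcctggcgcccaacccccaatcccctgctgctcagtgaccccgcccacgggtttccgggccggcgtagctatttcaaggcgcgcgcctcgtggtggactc

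Of the 28 genes with a window, 11 rose and 4 fell, and CACGTG was present in 3 of the 11 (CD63, CTSA and NEU1) and in 1 of the 4 (MCOLN1). A match of letters does not show that a factor binds there.

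Other lysosomal genes were read from 5 further lists of 107 genes, of which 99 were measured: 22 rose (22.2%), 8 fell (8.08%) and 69 did not pass. Of those at or above the median level 25.6% rose and 10.3% fell, against 15.5% and 12.3% of all genes in that range. Hydrolases and activators outside the main set gave 1 rise (3.7%, against 8.97% of all genes) and 2 falls (7.41%, against 7.79%) among 27, with a median change of 0.00. The rise was the activator gene SUMF1 (0.29, adjusted p = 0.00436, limma), whose product activates the sulfatases, so no hydrolase of this list rose. FUCA1, the lysosomal fucosidase, fell by 0.50 (SE 0.05, adjusted p = 0.000886) and the acid nuclease DNASE2 by 0.20 (adjusted p = 0.0427). DNASE2 kept its call only without control replicate 1 among the fits with 1 array left out (adjusted p = 0.0762 to 0.132 in the others, limma), and SUMF1 lost its call in the average of all its probe sets (adjusted p = 0.13).

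Transporters and other membrane proteins gave 8 rises (34.8%, against 8.97% of all genes) and 2 falls (8.7%, against 7.79%) among 23. At or above the median level 42.1% of 19 rose, against 15.5% of all genes in that range. SPNS1, a lysosomal lysophospholipid transporter, rose by 0.48 (SE 0.05, adjusted p = 0.000984, limma) from 8.40 ± 0.0099 to 8.88 ± 0.0605 (SD, n = 3). CTNS, the cystine exporter, rose by 0.39 (SE 0.05, adjusted p = 0.00261), whereas OSTM1, the beta subunit of the lysosomal chloride/proton exchanger, fell by 0.51 (SE 0.07, adjusted p = 0.00319). OSTM1 gave -0.01 (adjusted p = 0.973, limma) when probe sets of suffix _s or _x were left out, and averaging the probe sets of CTNS gave 0.14 (adjusted p = 0.0655).

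In the list of mannose 6-phosphate tagging and sorting genes 4 of 19 rose (21.1%, against 8.97% of all genes) and 2 fell (10.5%, against 7.79%). All 19 lay at or above the median level, where 15.5% of all genes rose and 12.3% fell. GNPTG, the gamma subunit of the tagging phosphotransferase, rose by 0.28 (adjusted p = 0.0052, limma), while the gene of its catalytic alpha and beta subunits, GNPTAB, fell by 0.20 (adjusted p = 0.0374). The clathrin adaptor subunit AP1G1 rose by 0.29 (adjusted p = 0.0274) and the tethering complex subunit VPS18 by 0.21 (adjusted p = 0.0334, limma). VPS18 kept its call only without CDKL1 shRNA replicate 1 (adjusted p = 0.0611 to 0.107 without each other array), and AP1G1 lost it without control replicate 3 or any 1 CDKL1 shRNA array (adjusted p = 0.0591 to 0.0893, limma). AP3D1 rose by 0.18 and GGA2 fell by 0.19. GNPTAB, AP3D1 and GGA2 were named after their values were seen.

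The last list holds the relatives of TFEB and TFE3 and the switch that keeps TFEB in the cytosol, in which mTORC1 is recruited to the lysosome by Ragulator and the Rag GTPases. It gave 5 rises (31.2%, against 8.97% of all genes) and 1 fall (6.25%, against 7.79%) among 16, with the relatives MITF (0.11) and TFEC (-0.09), named after their values were seen, not passing. Of its 13 genes at or above the median level 23.1% rose and 7.69% fell, against 15.5% and 12.3% of all genes in that range. The Ragulator subunit LAMTOR3 rose by 0.57, from 9.81 ± 0.0683 to 10.39 ± 0.0302 (SD, n = 3; SE 0.05, adjusted p = 0.0007, limma). LAMTOR5 rose by 0.30 (adjusted p = 0.00432) and FNIP1, the partner of folliculin, by 0.33 (adjusted p = 0.0038), although FNIP1 did not pass without probe sets of suffix _s or _x (adjusted p = 0.257). The others, named after their values were seen, were rises of the Rag GTPase gene RRAGD (0.46) and of RPTOR (0.22) and a fall of LAMTOR2 (-0.33). Ragulator subunits thus moved in opposite directions. Counts over the 5 lists were lower with single arrays left out, at 14 rises without control replicate 3, 14 without CDKL1 shRNA replicate 2 (5.84% of all genes), 12 without CDKL1 shRNA replicate 3 and 13 with control replicate 2 left out (5.74%). Falls numbered 3 of 99 without CDKL1 shRNA replicate 3, where 4.07% of all genes fell. They numbered 4 without CDKL1 shRNA replicate 1 (4.7% of all genes), control replicate 2 (4.4%) or control replicate 3 (4.72%). They numbered 5 without CDKL1 shRNA replicate 2 (5.33%) or control replicate 1 (5.98%).

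**Figure D4:**
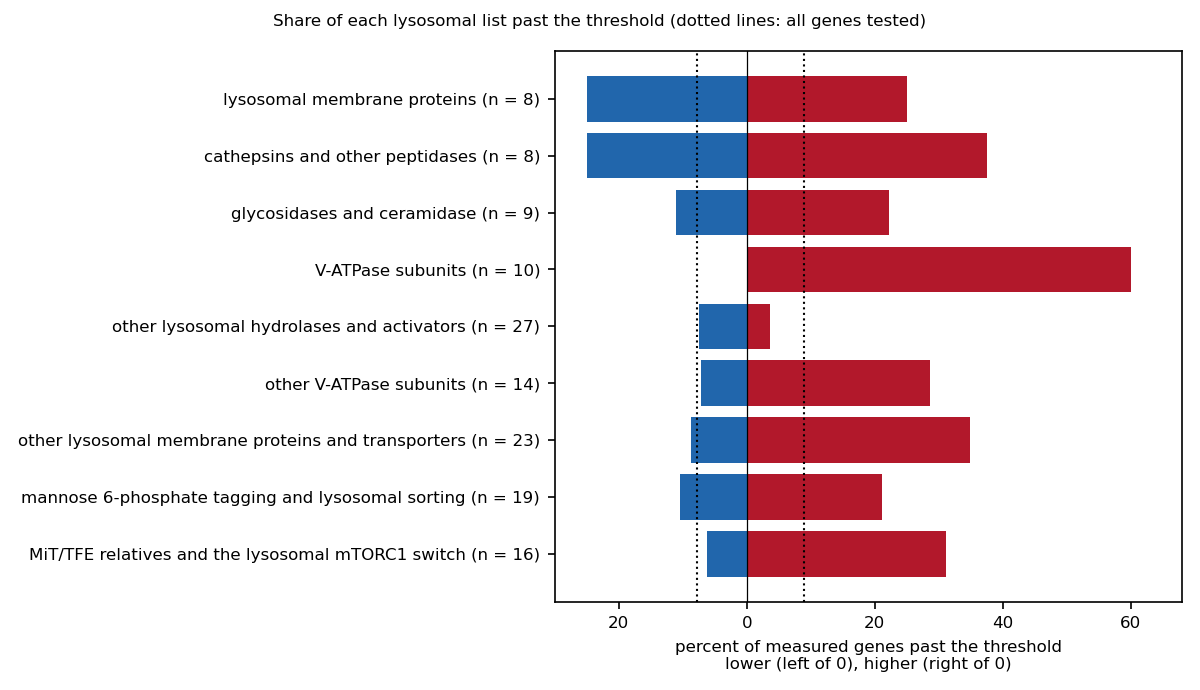
Percent of the measured genes in each list that rose (red, right of 0) or fell (blue, left of 0) at an adjusted p of 0.05, with the number measured in brackets and dotted lines at the shares over all genes, 8.97% for rises and 7.79% for falls. The V-ATPase subunits have the highest share of rises, 60% of 10 genes, and the other hydrolases and activators the lowest, 3.7% of 27. Lists of 2 genes are not drawn.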

How the data were processed

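RNA from 6 samples was measured on 1 Affymetrix array each. The authors deposited log2 values made with RMA, per the submitters' processing notes, which state neither version nor settings. In the platform annotation 44988 probe sets had 1 gene symbol, 1832 had several and 2473 had none, and 102 control probe sets were left out.

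For every gene the brightest single-symbol probe set over the 6 arrays was kept, and limma 3.58.1 (R 4.3.3) was fitted over 18132 genes with the group as the only term, two-sided, adjusted by Benjamini-Hochberg. An adjusted p under 0.05 was a call. The 3 arrays per group set the precision. Alternatives changed the normalisation, the probe set, the level filter, the variance prior, the ACTB term, the block or the arrays. On simulated data for this comparison (18132 genes, 50 changed at each size), 52% were recovered at a fold of 1.25 and 88% at 2. Far fewer genes were changed there than the 1627 that rose and 1413 that fell in the data. The adjustment was therefore stricter in the simulation, and these shares do not give the sensitivity of the real fit.

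The members and lists were chosen with earlier results of these data known. Values per array were given for called members, TFEB, TFE3, LAMP1 and LAMP2. Other members were given by their change, and each further list by up to 3 called genes of smallest adjusted p; others are marked as named after their values were seen. Of 10 fibroblast markers 0 were called (limma).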

Additional observations from a re-analysis of the deposited data

How the results depend on the processing

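With the ACTB term, the 13 rises and 5 falls among the 39 genes became 0 and 1, the 6 V-ATPase rises 0, and the 22 rises and 8 falls of the further lists 0 and 0; the larger SE of that fit is given above. Same-numbered arrays shared little deviation from their group means (correlations -0.029, -0.121 and 0.07), which does not settle whether they were handled in pairs. With the replicate number as a block the rises were 8, the V-ATPase rises 3 and the falls of the further lists 3. Those falls were 5 with probe sets averaged and 3 without _s and _x probe sets. The median change of 0.102 over the 39 genes became 0.069 with the ACTB term, 0.07 after a further quantile normalisation, 0.08 with probe sets averaged and 0.04 without _s and _x probe sets. The V-ATPase median of 0.211 became 0.177, 0.179, 0.241 and 0.24 in the same order. With 1 array left out, rises ranged from 7 to 15, V-ATPase rises from 3 to 6, rises of the further lists from 12 to 18 and their falls from 3 to 5, and the median of the 39 genes from 0.07 to 0.137. Signs turned for TPP1 (-0.185 without _s and _x probe sets), LAMP1 (-0.003 with the ACTB term, -0.086 without _s and _x probe sets), LAMP2 (0.019 with probe sets averaged) and TFE3 (0.007 with array medians subtracted, 0.008 after quantile normalisation, -0.058 to 0.057 with 1 array left out). The cause was not tested. Of the 18 calls, 17 were kept with array medians subtracted, 15 after quantile normalisation and 18 with a trended prior. Fewer were kept with the replicate number as a block, 12, and with 1 array left out, 12 to 16. Without _s and _x probe sets 11 were kept of the 16 called genes that were still measured.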
